A study of Mus musculus with 2 samples.

Results

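Skeletal muscle fibers are long multinucleated cells packed with sarcomeres, the actin and myosin arrays whose sliding shortens the muscle. Fibers of the mouse limb are graded by the myosin heavy chain they contain, from slow and oxidative fibers with Myh7, through the fast types with Myh2 and Myh1, to the fastest and most glycolytic with Myh4, and slow and fast fibers use different isoforms of troponin, tropomyosin, and myosin light chain. Intact adult fibers are far larger than a droplet, and muscle lies directly on the periosteum, the fibrous sheath of bone.

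Barcodes rich in muscle RNA were examined in 2 scRNA-Seq libraries of long bone periosteum, replicates 1 and 2 of 1 condition. Both came from WT mice of the C57BL6 strain, 4 weeks old, with no other allele or agent named. Femurs and tibias were stripped of skin, fascia, and muscle, and the peeled periosteum was digested with collagenase, passed through a strainer, and sorted on CD45, CD31, Ter-119, and DAPI, with cells negative for the first 3 markers kept. How many mice went into a library was not named, so the libraries may differ by animal, pooling, or handling, and these cannot be told apart.

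A barcode was taken as muscle-like when it held at least 500 genes and 500 UMIs, at most 10% mitochondrially encoded UMIs, no UMI of Ptprc (which encodes CD45), and at least 2% of its UMIs in the 6 genes Acta1, Ckm, Tnnt3, Mylpf, Tnnc2, and Atp2a1. A UMI marks 1 captured transcript, counted at its 3′ end, so levels were compared between genes as UMIs or as CPM, the UMIs of a gene per 1000000 UMIs of the same barcodes, without division by length. The rule selected 143 of 9169 barcodes past the filters. Library 1 gave 77 of 6276, or 1.23% (exact binomial 95% interval, 0.969% to 1.53%), and library 2 gave 66 of 2893, or 2.28% (1.77% to 2.89%). Without the minimum of 500 genes, the counts were 126 and 91. Intervals here and below cover counting error within 1 library only. Because measured RNA chose the barcodes, and the 2 libraries share 1 condition, no test was made and contrasts with other barcodes are descriptions. The libraries had 8 barcode sequences in common, of which 1 was muscle-like in a library.

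Contents of the libraries went beyond their labels. Although the sort was against CD45 and Ter-119, the barcodes past the filters included 2834 with Cd79a or Cd79b, B lineage genes, and 996 rich in globin in library 1, against 1365 and 84 in library 2. Although both were labeled WT, the features included the reporters tdTomato and EGFP, and the barcodes past the filters that were not muscle-like carried 1472 tdTomato UMIs in library 1 and 4608 in library 2, and EGFP reached 6803 UMIs in library 2.

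The rule genes lie on chromosomes 2, 7, and 8. In GENCODE M21 on GRCm38, Acta1, the actin of skeletal muscle thin filaments, spans 123891769 to 123894751 on the minus strand of chromosome 8, and Mylpf, the fast regulatory light chain, spans 127208890 to 127214298 on the plus strand of chromosome 7. The fast myosin genes stand side by side on the plus strand of chromosome 11, Myh2 at 67171027 to 67197517, Myh1 at 67200052 to 67224575, and Myh4 at 67238029 to 67260446. Slow Myh7 is on the minus strand of chromosome 14 at 54970684 to 54994626. Since these genes were high in the same barcodes, the 150 bases before the RefSeq start (GRCm38.p6) were read for 6 muscle genes, and the 3 windows that met no exon of their gene in GENCODE are printed 5′ to 3′ on the strand of the gene. Capitals mark the E box bound by myogenic factors (CANNTG), the TATA box (TATAAA), the M-CAT motif (CATTCC), and the CArG box of serum response factor, searched on both strands. No match overlapped another, and the M-CAT and CArG motifs were chosen after the sequences had been seen. The Mylpf window lies inside the span that GENCODE gives this gene, between exons.
Acta1, chr8:123894776-123894925, minus strand: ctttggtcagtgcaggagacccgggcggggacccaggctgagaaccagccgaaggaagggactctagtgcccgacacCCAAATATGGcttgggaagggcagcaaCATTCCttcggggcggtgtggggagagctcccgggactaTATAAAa
Mylpf, chr7:127211458-127211607, plus strand: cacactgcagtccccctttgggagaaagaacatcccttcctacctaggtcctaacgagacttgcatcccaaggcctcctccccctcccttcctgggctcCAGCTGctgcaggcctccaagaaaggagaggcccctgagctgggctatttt
Myh4, chr11:67237662-67237811, plus strand: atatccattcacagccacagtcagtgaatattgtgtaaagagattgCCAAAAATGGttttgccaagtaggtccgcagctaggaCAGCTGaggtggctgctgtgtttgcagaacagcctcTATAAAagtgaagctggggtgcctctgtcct

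A CArG box stood in the Acta1 and Myh4 windows and in 0.916% of the 32851 RefSeq promoter windows of this length. The TATA box was found in the same pair and in 7.57% of all windows. The M-CAT motif was found in Acta1 alone among the 3 and in 7.59% of all, and the E box in Mylpf and Myh4 and in 47.7% of all. These are matches of letters only.

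Most muscle-like barcodes lay well above the threshold that chose them. The share of UMIs in the rule genes had a median of 16.7% in library 1 (lowest 2.30%, highest 28.3%) and 16.4% in library 2 (lowest 2.12%, highest 26.6%). In library 1, 62 of 77 were above 10%, and 59 of 66 in library 2. Just inside the threshold, library 1 had 2.30%, 2.62%, and 4.83%, and just outside it 1.75%, 1.74%, and 1.42%. In library 2 the values were 2.12%, 3.28%, and 3.80% inside and 1.31%, 1.05%, and 0.649% outside. Few barcodes lay in between, with 5 in each library from 0.5% to 2%, and 1977 of the 3219 other barcodes with no Ptprc in library 1 and 1440 of 2048 in library 2 had no UMI of a rule gene at all.

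**Figure D1:**
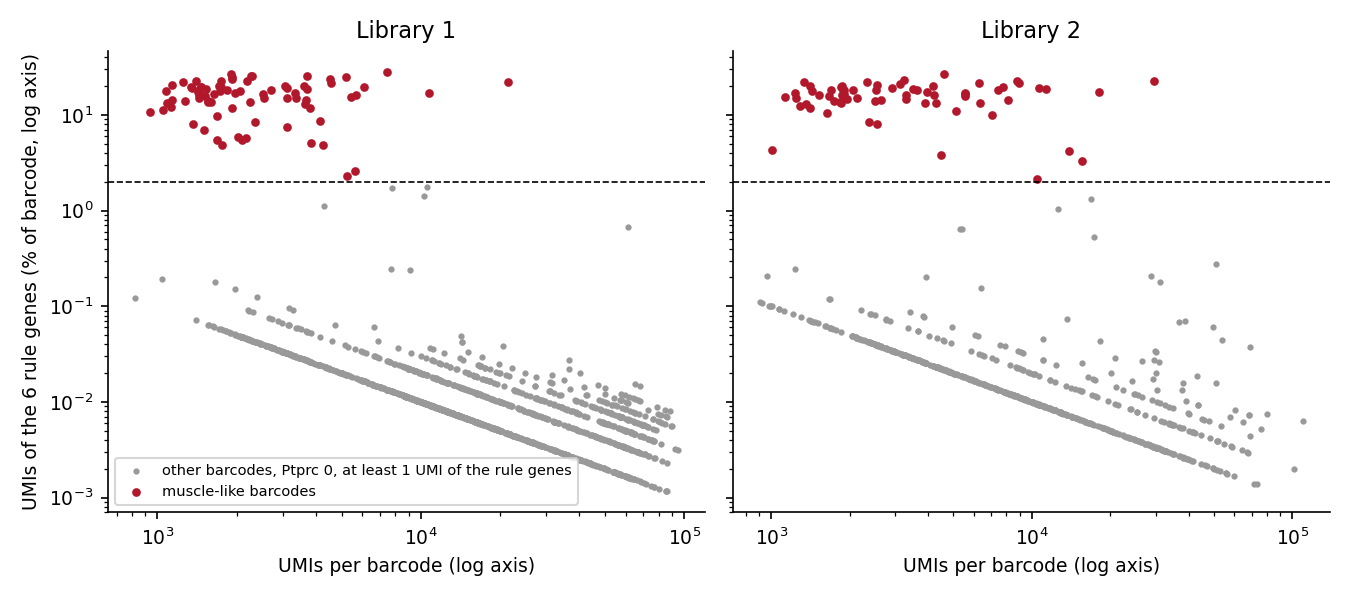
UMIs per barcode (log axis) against the percentage of those UMIs in the 6 rule genes (log axis) for each library. Red points are muscle-like barcodes, gray points are the other barcodes without Ptprc that had at least 1 rule-gene UMI, and the dashed line is the 2% threshold. The 77 and 66 red points form a cloud around 16.7% and 16.4%, with 5 gray points in each library between 0.5% and the line.

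The barcodes were shallow. Library 1 had a median of 1968 UMIs (938 to 21363) and 737 genes (512 to 3096), and library 2 had 2784 UMIs (1011 to 29407) and 878.5 genes (512 to 3683). The median over all barcodes past the filters was 8164 UMIs in library 1 and 6279 in library 2, and collagen barcodes, which carried at least 2% of their UMIs in Col1a1, Col1a2, Col3a1, and Sparc, had medians of 25459 and 10107. At an equal depth of 1000 UMIs, the median number of genes expected was 463.1 in the 76 muscle-like barcodes of library 1 that were deep enough and 447.7 in all 66 of library 2, against 606.9 and 613.6 in the Cd79a/Cd79b barcodes and 511.5 and 562.7 in collagen barcodes. Globin barcodes had fewer, 326.5 and 286.1.

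The sarcomere was represented broadly beyond the rule. All 89 genes of the muscle lists outside the rule together took 17.4% of UMIs in library 1 and 16.3% in library 2. The 70 of them taken, from background knowledge, as not in general use by other cell types took 10.3% and 8.91%. Some of the 70 had UMIs in other classes. The developmental muscle genes summed to 398 CPM in Cd79a/Cd79b barcodes of library 1, of 480.9 CPM for all 70, and to 361 CPM in those of library 2. In collagen barcodes the 70 genes summed to 591.1 CPM in library 1 and 401.7 CPM in library 2, against 103120 and 89074.7 CPM in muscle-like barcodes. By the fold of CPM + 10 over the other barcodes without Ptprc, all 9 fast fiber genes, all 8 filament genes shared by fibers, and all 11 glycolytic genes were at least 2-fold higher in both libraries. Over all 11085 genes with a UMI in muscle-like barcodes, the percentage was 6.77%. It is the contrast that the rule used, so the counts only describe the barcodes. Among the other lists, 11 of 12 Z disc and M band genes, 8 of 10 slow fiber genes, 8 of 10 calcium and excitation genes, and 7 of 9 mitochondrial and oxygen genes were at least 2-fold higher in both.

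Of the rule genes, Acta1 was the most abundant, at 56961 CPM in library 1 and 47751 CPM in library 2, with a UMI in every muscle-like barcode. Mylpf followed at 45784 and 42760 CPM. Tnnc2, the calcium-binding troponin of fast fibers, was at 29339 and 31436 CPM, and fast troponin T, Tnnt3, at 18171 and 19869 CPM, the latter with a UMI in 72 of 77 and 64 of 66 barcodes. Ckm, the muscle creatine kinase that buffers ATP, reached 14191 and 14378 CPM. Atp2a1, the calcium pump of the fast fiber reticulum, was the lowest, at 989.4 and 759.5 CPM. These levels set the rule and serve as description.

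Outside the rule, high levels belonged to Tpm1, the tropomyosin that covers actin's myosin sites (29172 CPM in library 1 and 28842 CPM in library 2), to Myl1, the fast essential light chain (28928 and 24551), to Tnni2, the fast inhibitory troponin (19833 and 20195), and to Tpm2 (15035 and 10804). Tpm1, Myl1, and Tpm2 each had a UMI in all 77 and all 66 barcodes. The other 6 of the 10 most abundant were the glycolytic enzymes Aldoa and Gapdh, the mitochondrial ADP/ATP carrier Slc25a4, the ferritin chain Fth1, Tpt1, and ribosomal Rps2. Aldoa was at 10296 and 12623 CPM, and Slc25a4 at 7247 and 7625 CPM. Of the pair of identifiers that carry the name Aldoa, all of these UMIs were under ENSMUSG00000030695.

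Structural genes of the Z disc were also abundant. Tcap, which caps titin at the Z disc, was at 3592 CPM in library 1 and 5501 CPM in library 2, the calsarcin Myoz1 at 2453 and 2436 CPM, and desmin (Des) at 2087 and 1713 CPM. The giant proteins gave few 3′ counts, Ttn with 134 and 116 UMIs and Neb with 72 and 89. The triad genes for the coupling of excitation to contraction were low, with Jsrp1 at 537.6 and 559 CPM, Trdn at 483.4 and 338.7 CPM, and the calcium release channel Ryr1 at 16 and 12 UMIs in all. Among metabolic genes, Eno3, the muscle enolase, was at 4251 and 4475 CPM, Pgam2 at 3556 and 3771 CPM, and myoglobin (Mb), the oxygen store, at 3809 and 2759 CPM.

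Most listed genes of immature or specialized muscle had few UMIs. Embryonic Myh3 had no UMI in either library, which allows up to 13.6 CPM in library 1 and 9.86 CPM in library 2, and neonatal Myh8 had 1 UMI and 0. Pax7, the satellite cell gene, and Cdh15 had none. Myod1 had 7 and 19 UMIs, in 7 and 17 barcodes, and Myog had 4 and 7 UMIs. Both encode transcription factors of the muscle lineage. Only Actc1, the cardiac actin that developing skeletal muscle also uses, was plentiful in its list, at 804.2 and 305.8 CPM. Chrna1, Chrne, Colq, and Ache, genes of the neuromuscular junction, had no UMI in either library, Musk and Col22a1 had 2 and 4 UMIs in library 2 only, and Ankrd1 had 5 and 21 UMIs. In all, 1 of 6 developmental genes, 3 of 7 progenitor and fusion genes, and 1 of 7 junction genes were at least 2-fold higher in both libraries, beside 6.77% of the genes with a UMI in muscle-like barcodes. Several genes of these lists had no such UMI.

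Outside the lists and the rule, the 10 genes with the largest fold were Apobec2, Ppp1r27, Ankrd23, Sh3bgr, Hspb6, Fitm1, Rpl3l, Hspb7, Smpx, and Eef1a2. Apobec2, a muscle member of the cytidine deaminase family, led with 1870 CPM in library 1 and 1391 CPM in library 2 and was found in 67 of 77 and 63 of 66 barcodes, against 0.783 and 1.90 CPM in the other barcodes without Ptprc. Rpl3l, the striated muscle paralog of the ribosomal protein gene Rpl3, was at 704.8 and 723.4 CPM. Eef1a2, the elongation factor of adult muscle and neurons, was at 722.9 and 489.9 CPM, and the small heat shock genes Hspb6 and Hspb7 were at 1301 and 1312 CPM and at 768 and 572.1 CPM.

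Myosin heavy chains, which the rule did not use, were nearly all of fast types. In library 1 the 4 adult limb genes had 342 UMIs, 208 of Myh4, 85 of Myh1, 28 of Myh2, and 21 of Myh7. In library 2 they had 290, with 109 of Myh4, 146 of Myh1, 23 of Myh2, and 12 of Myh7. Fast myosin was 93.9% of these UMIs in library 1 (90.8% to 96.2%) and 95.9% in library 2 (92.9% to 97.8%), and these intervals overlap. The fast mix was not alike. Myh4 was 60.8% (55.4% to 66.0%) in library 1 and 37.6% (32.0% to 43.4%) in library 2, and Myh1 was 24.9% (20.4% to 29.8%) and 50.3% (44.4% to 56.2%). Single barcodes weighed on these shares. In library 1, 1 barcode held 39 of the 85 Myh1 UMIs, and without it Myh4 was 68.0% and Myh1 15.5%. In library 2, 1 barcode held 36 of the 109 Myh4 UMIs, and without it Myh4 was 28.7% and Myh1 57.5%. Of the 6 rule genes, 4 are themselves fast isoforms, so a slow fiber could pass the rule mainly through Acta1 and Ckm. No other barcode past the filters without Ptprc had 1% or more of its UMIs in the 6 slow genes Myh7, Tnnt1, Tnni1, Tnnc1, Myl2, and Myl3.

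The number of myosin genes in a barcode differed between the libraries. In library 1, 16 of the 18 barcodes with at least 5 myosin UMIs had 1 gene only, and the other 2 combined Myh4 with Myh1. In library 2, 9 of 21 had 1 gene, and 12 had more, with Myh4 beside Myh1 in 10 and Myh1 beside Myh2 in 3, where 1 barcode with all 3 counts under both. These pairs neighbor each other in the fiber type series. Myh7 was detected in 4 muscle-like barcodes of library 1 and 2 of library 2, and none of these had a UMI of a fast myosin. In library 1, those of 2354 and 1914 UMIs had 1 myosin UMI each, so a second gene could not be seen. The others had 3 and 16 myosin UMIs in library 1 and 9 and 3 in library 2. Myh4 with Myh2, which are not neighbors in the series, met in 0 barcodes of library 1 and in 1 barcode of library 2, which had all 3 fast genes.

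A slow share was computed for each barcode from genes outside the rule, as the UMIs of the 6 slow genes over these plus the fast genes Myh1, Myh2, Myh4, Tnni2, and Myl1, where at least 20 such UMIs were present. In library 1, 60 of 77 barcodes were below 10%, 49 of them with no slow UMI, 11 were between 10% and 50%, and 6 were at 50% or more. In library 2, 57 of 65 were below 10%, 40 of them at 0, 5 were between, and 3 were at 50% or more. The upper group held most of the slow RNA, 81.7% of all slow UMIs in library 1 (1497 of 1832) and 80.2% in library 2 (814 of 1015).

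**Figure D2:**
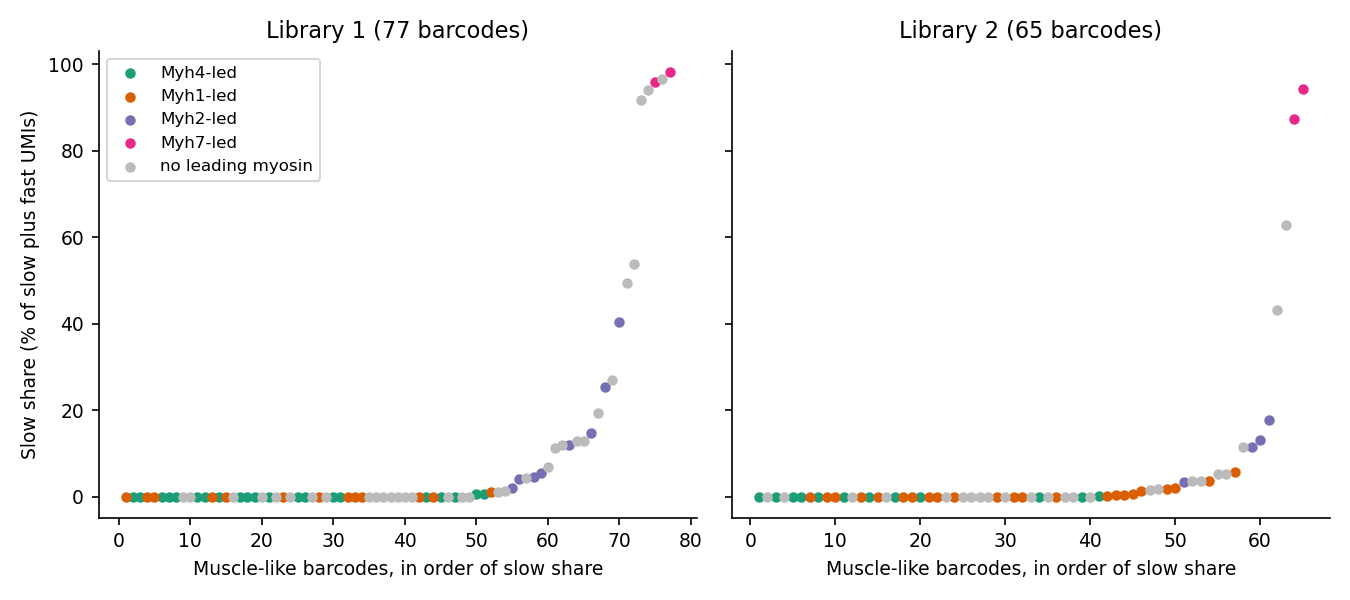
Slow share of each muscle-like barcode (percentage of slow plus fast UMIs outside the rule) in rising order, 77 barcodes in library 1 and 65 in library 2. Color gives the leading myosin, at least 2 UMIs and more than 50% of the myosin UMIs; gray points had none. Myh4-led points lie at the bottom and Myh7-led points at the top, with 6 and 3 barcodes at 50% or more. Myh2-led points range from 2% to 40.4% in library 1 and from 3.28% to 17.7% in library 2. Myosin UMIs enter both the color and the slow share.

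Of the 6 slow barcodes of library 1, 5 were above 91%, with shares of 98.2%, 96.6%, 96.0%, 93.9%, and 91.7%. None of these 5 had a UMI of Tnni2, but all had fast Myl1, with 7, 8, 17, 10, and 18 UMIs in that order. The barcode at 93.9% also had 6.85% erythroid UMIs and 25 of Malat1. The other was at 53.7% and had 45 Tnni2 UMIs beside 27 of Tnnt1, the slow troponin T, and the next barcodes below it were at 49.4% and 40.4%. In library 2 the shares were 94.2%, 87.2%, and 62.9%. The barcode at 62.9% had no UMI of Myh7, Tnnc1, or Myl3. It had 14 UMIs of Tnnt1 and 24 of Myl2 beside 11 of Tnni2, 11 of Myl1, and 1 of Myh2. The 9 barcodes were of moderate depth, 1678 to 4158 UMIs in library 1 and 2130 to 5126 in library 2, and held no UMI of Pvalb, the calcium buffer of the fastest fibers, which over all muscle-like barcodes was at 2196 CPM in library 1 and 1703 CPM in library 2. The deepest barcode of the slow group, in library 2, had 9 UMIs of Myh7, 67 of Tnnt1, 160 of slow and cardiac troponin C (Tnnc1), 220 of Myl2, and 98 of Myl3. Of the fast genes it had 0 UMIs of Tnni2 and 38 of Myl1. Summed over the slow barcodes, Myl1 was at 8101 CPM in library 1 and 5446 CPM in library 2.

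When barcodes were grouped by leading myosin, isoforms of other proteins varied with it. The groups were formed on myosin UMIs, so only other genes are described. Library 1 had 21 Myh4-led, 13 Myh1-led, 8 Myh2-led, and 2 Myh7-led barcodes, and library 2 had 12, 23, 4, and 2. The other 33 and 25 had no leader. Barcodes with 1% or more of other lineages were 2 of the Myh1-led and 2 of the Myh2-led barcodes of library 1 and 1 of the Myh1-led barcodes of library 2. Pvalb was highest in Myh4-led barcodes, at 5031 CPM in library 1 (exact Poisson interval, 4500 to 5607) and 2623 CPM in library 2 (2315 to 2961). In Myh1-led barcodes it was at 1773 CPM (1429 to 2175) and 1673 CPM (1426 to 1952), and in the Myh2-led and Myh7-led barcodes of both libraries it had no UMI. Actn3, the fast alpha-actinin, and Mybpc2, the fast myosin-binding protein, followed the same order, Mybpc2 with 1308, 539.6, 0, and 0 CPM from Myh4 to Myh7 in library 1 and 560.7, 247.9, 0, and 0 CPM in library 2.

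The slow isoforms Tnnt1, Tnnc1, Myl2, and Tpm3 were highest in Myh7-led barcodes of both libraries. Mybpc1, also on the slow list, was not. In library 2 it was at 275.6 CPM with Myh7 (2 UMIs), 278.9 CPM with Myh1, and 376.1 CPM with Myh2. In library 1 it was at 879.3 CPM with Myh7 (7 UMIs) and 578.2 CPM with Myh1. Barcodes with a slow share below 10% held 51 of its 64 UMIs in library 1 and 40 of 48 in library 2. Tnnt1 was at 21605 CPM in library 1 (18497 to 25086) and 12817 CPM in library 2 (10345 to 15702) in Myh7-led barcodes. It was at 1471 and 188 CPM in Myh2-led barcodes and at 15.4 and 20.02 CPM in Myh4-led barcodes, the last from 1 and 2 UMIs. In Myh1-led barcodes it had no UMI in library 1, and in library 2 it had 4 UMIs in 1 barcode and 1 in another. In library 1, 2 Myh2-led barcodes held 18 and 12 of the 38 Tnnt1 UMIs, the first of them with 5.23% of other-lineage UMIs, and the level was 412 CPM without these 2. In library 2 the level rested on 3 UMIs in 2 barcodes. The tropomyosin genes exchanged places in the same barcodes. Tpm3, slow tropomyosin, was at 20726 and 16676 CPM in the Myh7-led group and had no UMI in the Myh4-led group, which allows up to 46.2 CPM in library 1 and 30.0 CPM in library 2. Tpm1 was at 4020 and 1240 CPM in the Myh7-led group and at 47953 and 47235 CPM in the Myh4-led group. The Myh7-led levels come from 2 barcodes per library.

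Several genes of oxygen and fatty acid handling differed between the fast groups and others less. Mb was at 569.2, 2833, and 8360 CPM in the Myh4-led, Myh1-led, and Myh2-led barcodes of library 1, and at 1131, 4338, and 7145 CPM in library 2. Fabp3, which carries fatty acids, was at 338.5, 867.3, and 3135 CPM in library 1 and at 280.3, 1901, and 4325 CPM in library 2, and Myoz2, the calsarcin of oxidative fibers, at 0, 366.2, and 2438 CPM and at 130.2, 764.4, and 4951 CPM. For these 3 genes the counting intervals of the 3 groups did not overlap within a library, but they leave out the spread between barcodes. In Myh4-led barcodes, Mb was seen in 6 of 21 in library 1 and 8 of 12 in library 2. Myoz2 in that group of library 2 had 13 UMIs in 3 barcodes. In library 1, 1 barcode gave 21363 of the 51888 UMIs of the Myh1-led group. For the cytochrome oxidase subunits Cox7a1 and Cox8b, intervals of the Myh4-led and Myh2-led barcodes overlapped in library 1 (Cox7a1 at 800 and 1277 CPM, Cox8b at 1077 and 1742 CPM). In library 2 those of Cox8b overlapped (2012 and 2068 CPM) and those of Cox7a1 did not (1271.5 and 2570 CPM). Myh1-led barcodes had Cox7a1 at 732.3 CPM in library 1 and 2768 CPM in library 2, and Cox8b at 1118 and 3119 CPM. Both library 2 values were the highest of the 3 fast groups. There the Cox8b interval with Myh1 (2778 to 3492) lay above that with Myh4 (1744 to 2311). Cryab, a small heat shock protein of the Z disc, was at 2031 and 2533 CPM with Myh4 and at 9018 and 7709 CPM with Myh2. Eno3 was at 5677 and 6067 CPM with Myh4, 3599 and 3823 CPM with Myh2, and 502.4 and 1102.5 CPM with Myh7. Actc1 was mainly in Myh4-led barcodes, at 2246 and 780.9 CPM, against 115.6 and 41.3 CPM with Myh1.

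**Figure D3:**
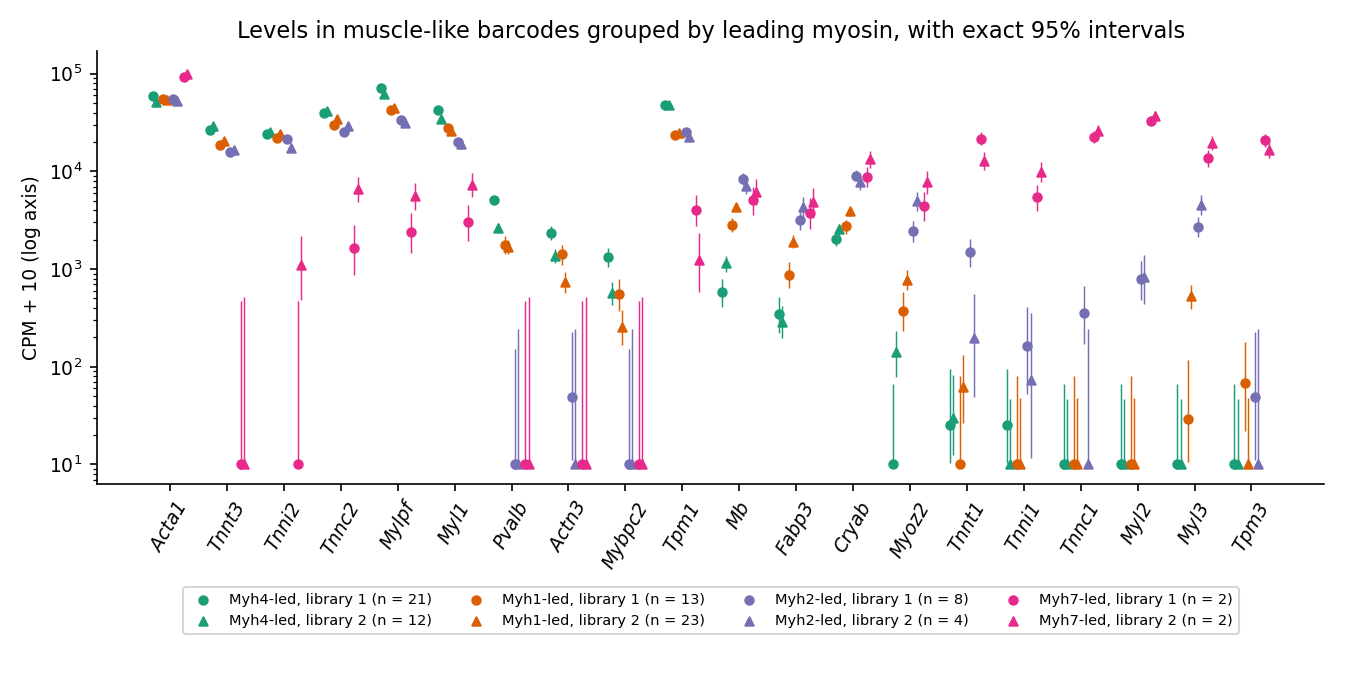
CPM + 10 (log axis) of 20 genes in muscle-like barcodes grouped by leading myosin. Circles are library 1, triangles library 2, lines exact Poisson 95% intervals of counting error, and points at 10 had no UMI. Pvalb falls from 5031 CPM with Myh4 to 0 with Myh2 and Myh7 in library 1, and Tnnt1, Tnnc1, Myl2, and Tpm3 are highest with Myh7 in both libraries.

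Nuclear RNA was detected in few of the barcodes. Malat1, a long noncoding RNA held in nuclear speckles, summed to 4016 CPM in library 1 and 1868 CPM in library 2, against 8684 and 7261 CPM in Cd79a/Cd79b barcodes, 4479 and 4208 CPM in S100a8/S100a9 barcodes, and 3199 and 6739 CPM in barcodes of no named class. It had no UMI in 53 of 77 muscle-like barcodes of library 1 and 60 of 66 of library 2. At 1000 UMIs, the expected percentage of barcodes with a Malat1 UMI was 21.6% and 7.95% in muscle-like barcodes, 96.4% and 93.2% in Cd79a/Cd79b barcodes, 81.1% and 79.6% in collagen barcodes, and 96.9% and 93.2% in globin barcodes. Without thinning, 31.2% and 9.09% of muscle-like barcodes had a UMI, against 99.8% and 99.3% of Cd79a/Cd79b barcodes, at median depths of 1968 and 2784 UMIs against 3980.5 and 4055. Neat1, another nuclear RNA, had 21 and 4 UMIs.

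Transcripts of the mitochondrial genome were also few. They made up a median of 0.124% of UMIs in library 1 (0% to 4.05%) and 0.0618% in library 2 (0% to 3.55%), with 68 of 77 and 62 of 66 barcodes below 1%. Medians in Cd79a/Cd79b barcodes were 4.79% and 1.86%, in globin barcodes 0.800% and 0.365%, and in S100a8/S100a9 barcodes, rich in these neutrophil genes, 0.641% and 0.285%. Nuclear-encoded subunits of the respiratory chain and ATP synthase stood the other way. The 88 features of these families summed to 93018 CPM in library 1 and 120948 CPM in library 2, against 4671.5 and 3794 CPM for the 13 mitochondrially encoded genes. In Cd79a/Cd79b barcodes the sums were 25730 and 27506 CPM against 38076 and 16696 CPM. Muscle-specific subunits were among them, with Cox6a2 at 1947 and 2469 CPM and Cox8b at 1242 and 2223 CPM. Cytoplasmic ribosomal protein genes took a median of 10.3% and 10.7% of UMIs. The mitochondrially encoded sums of muscle-like barcodes rest in large part on a few with 1% or more of other lineages. In library 1, those of 5611, 5253, and 4269 UMIs had 2.98%, 4.05%, and 3.77% mitochondrial UMIs. In library 2, those of 15598, 13869, and 10468 UMIs had 2.33%, 1.01%, and 3.55%.

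Transcripts of other lineages were uneven among barcodes. The 10 lists of other lineages (erythroid, neutrophil, B cell, monocyte and macrophage, T and NK cell, bone, cartilage, fibroblast, tendon, and Lepr stromal genes) took a median of 0.314% of UMIs per muscle-like barcode in library 1 and 0.0892% in library 2. They reached 1% in 10 of 77 and 5 of 66 barcodes. In library 1 erythroid genes led in 7 of the 10, B cell genes in 2, and Lepr stromal genes in 1. In library 2 bone genes led in 3 of the 5, erythroid genes in 1, and fibroblast genes in 1. The 10 barcodes held 76.0% of the erythroid and 40.4% of the bone UMIs of library 1, and the 5 held 39.2% and 99.8% in library 2. A UMI of Hbb-bs, a globin of red cells, was in 70 of 77 and 46 of 66 muscle-like barcodes, and a UMI of S100a9, a neutrophil gene, in 37 and 10.

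Malat1 lay mainly in the same barcodes. It was at 29245 CPM in the 10 of library 1 (815 UMIs) and 11881 CPM in the 5 of library 2 (506 UMIs), and at 382.5 CPM (74 UMIs) and 237 CPM (62 UMIs) in the other 67 and 61. Of these, 2 barcodes of library 1 (45 and 12 UMIs) and 1 of library 2 (59 UMIs) held most of it, and without them Malat1 was at 90.64 and 11.55 CPM. At least 10 Malat1 UMIs were seen in 10 and 3 muscle-like barcodes, and 8 and 2 of these were among the barcodes with 1% or more of other lineages. The rule genes took a median of 5.61% of UMIs in the 10 barcodes and 4.16% in the 5, against 17.7% and 16.9% in the others. In library 1 the highest globin shares were 12.0% and 10.0%, in barcodes of 1752 and 1498 UMIs that held 187 and 99 Malat1 UMIs. In library 2, 1 barcode of 15598 UMIs gave 5200 of the 5909 bone UMIs of all muscle-like barcodes (88.0%) and had 277 Malat1 UMIs. The part of droplets with more than 1 cell in these barcodes was not tested, and no caller of doublets was run.

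**Figure D4:**
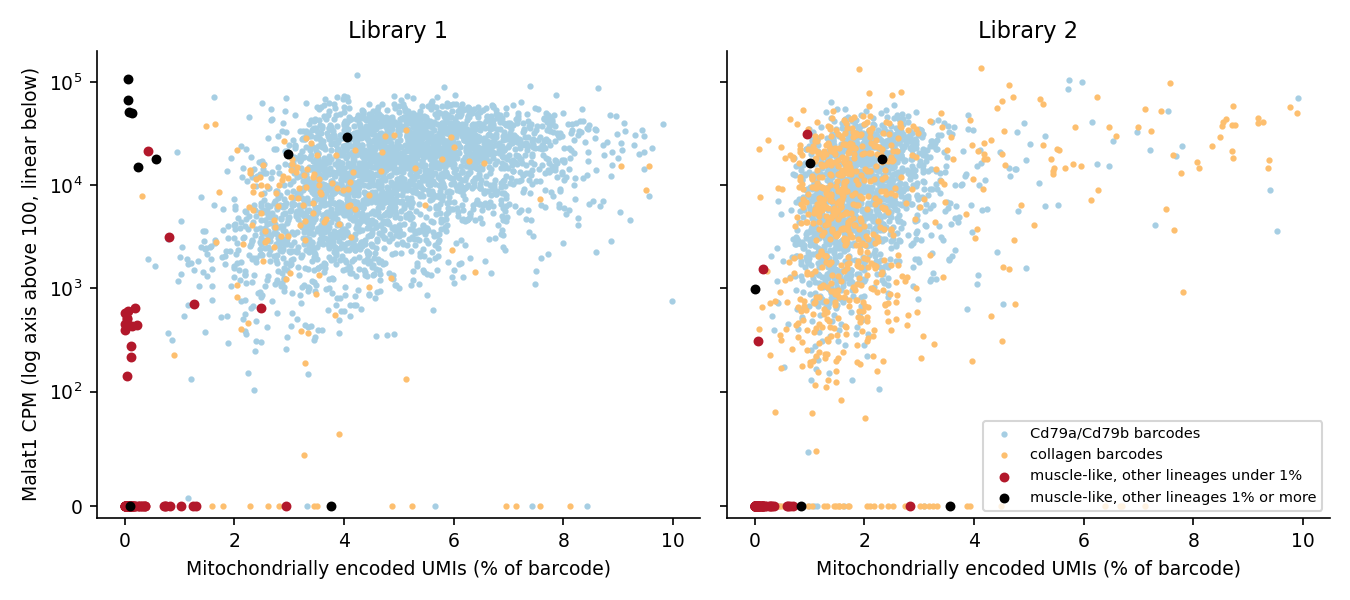
Mitochondrially encoded UMIs (percentage of barcode) against Malat1 (CPM, log axis above 100 and linear below) for each library. Red points are muscle-like barcodes with less than 1% of other-lineage UMIs (67 and 61), black points those with 1% or more (10 and 5), and pale points Cd79a/Cd79b and collagen barcodes. Most red points sit at 0 Malat1 and below 1% mitochondrial UMIs. Among black points, 8 in library 1 and 2 in library 2 had at least 10 Malat1 UMIs, and 2 in each library had none.

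Each list of another lineage was summed over all muscle-like barcodes. The erythroid list summed to 5539 CPM in library 1 and 595.1 CPM in library 2, with Hbb-bs the most abundant at 2882 and 351.8 CPM, and Alas2, a defining gene of red cell precursors, at 7 and 0 UMIs. In the muscle-like barcodes with under 1% of other lineages, called the rest here, it summed to 1520 and 420.6 CPM. In collagen barcodes it summed to 3706 and 1329 CPM, with a median of 0.0958% and 0.0166% of UMIs per barcode and up to 11.6% and 59.8% in 1 barcode. The rest was defined by these same lists, so its low sums are a description of the split. The bone list summed to 212.3 CPM in library 1, and in library 2 to 19429 CPM with all 66 barcodes and 57.4 CPM in the rest. Its most abundant gene was Sparc at 108.4 CPM in library 1 and Col1a1 at 6448 CPM in library 2. Cartilage genes, led by Col2a1, summed to 40.7 and 1207 CPM (41.3 and 34.4 CPM in the rest), and 1 barcode held 288 of their 367 UMIs in library 2. Fibroblast genes summed to 9.04 and 1499 CPM (5.17 and 15.3 CPM in the rest), and 1 barcode held 292 of their 456 UMIs in library 2, where Col3a1 led. Tendon genes summed to 63.3 and 62.5 CPM (62.0 and 30.6 CPM in the rest), with Scx, a tendon transcription factor, at 12 and 8 UMIs in 10 and 8 barcodes, and Tnmd at 0 and 4 UMIs. Neutrophil genes, led by S100a9, summed to 673.2 and 59.2 CPM (620.2 and 65 CPM in the rest). B cell genes, led by Vpreb3 in library 1 and Ighm in library 2, summed to 686.7 and 26.3 CPM (56.9 and 26.8 CPM in the rest). Monocyte and macrophage genes summed to 140.1 and 723.4 CPM (98.2 and 107.1 CPM in the rest), with 24 of 31 and 211 of 220 UMIs from Cst3, and with Cd68 and Csf1r at 0 in both. Lepr stromal genes summed to 131 and 9.86 CPM, all 29 UMIs of library 1 in 1 barcode, and the rest had none in either library. Lepr itself had 1 and 0 UMIs. Pecam1, Cdh5, Kdr, and Emcn of endothelium, and Cd3e, Cd3d, Trbc2, and Nkg7 of T and NK cells had no UMI in either library. Of smooth muscle genes, Acta2 had 5 and 5 UMIs, and Tagln, Myh11, Rgs5, and Cnn1 had none. Of heart genes, Tnni3 had 1 UMI in each library, and Myh6, Nppa, Myl7, and Ryr2 had none.

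Muscle-like barcodes held 70.1% of the rule-gene UMIs of all deposited barcodes in library 1 (36618 of 52235) and 84.5% in library 2 (47736 of 56466). The other classes were defined as below the threshold, so their low levels restate the rule. In them Mylpf was in more barcodes than Acta1, for example in 36.1% against 8.84% of globin barcodes and 42.4% against 10.2% of barcodes of no named class in library 1.

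Several muscle genes had similar levels in the 2 libraries and others did not. Tnni2, Eno3, Pgam2, Gapdh, and Myoz1 had overlapping intervals, with Tnni2 at 19251 to 20429 CPM in library 1 and 19693 to 20706 CPM in library 2. Tcap was higher in library 2 (5501 CPM against 3592 CPM). In library 1 the slow list stood at 9953 CPM (9542 to 10377), against 3946 CPM (3726 to 4175). These sums rest largely on the 6 and 3 slow barcodes, which held 81.7% and 80.2% of the UMIs of the 6 slow genes. With 1 library for each replicate, these differences have no replicate check.

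**Figure D5:**
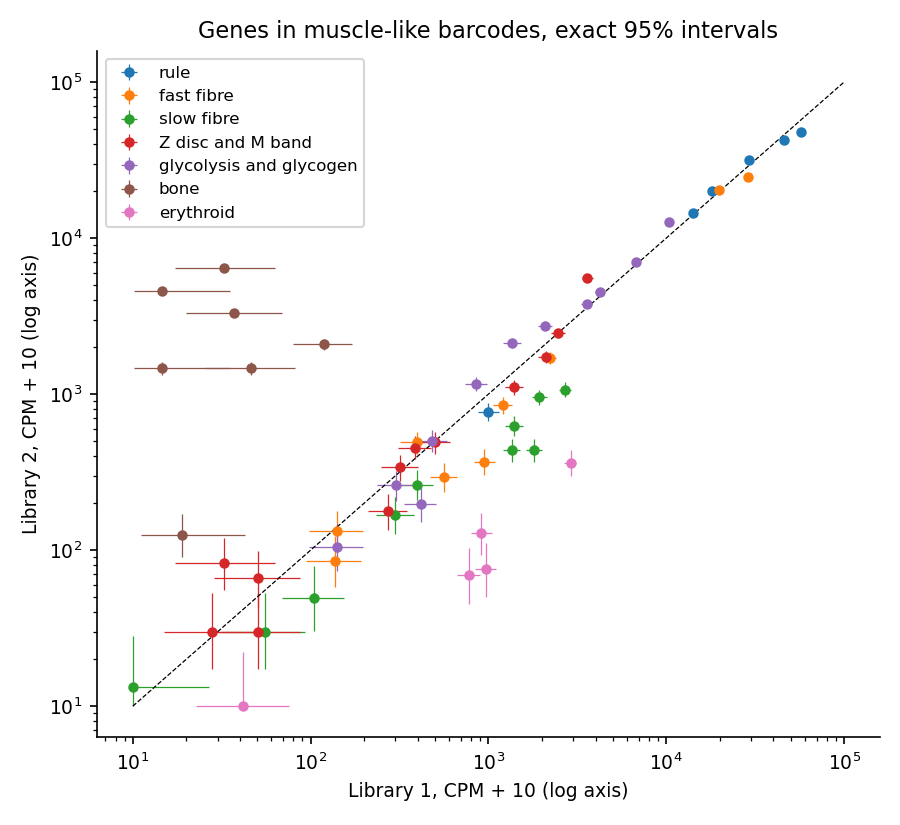
CPM + 10 in library 1 against library 2 (log axes) for genes of 7 lists in muscle-like barcodes, with exact Poisson 95% intervals; the dashed line marks equal levels. Most rule, fast fiber, Z disc, and glycolytic genes lie near the line, slow genes mostly below it, erythroid genes below it, and bone genes, which came mainly from 1 barcode of library 2, above it.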

How the data were processed

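Single-cell suspensions of mouse periosteum were made into 10x Chromium 3′ v3.1 libraries. The authors counted reads with Cell Ranger (version 6.1.2) against mm10, per the labels, and the deposited files give each library's UMI counts, not normalized, by gene and barcode. Library 1 held 9932 barcodes and 100808649 UMIs, and library 2 held 3659 and 33306452. The annotation behind the counts is not given in the sources used here.

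Barcodes were filtered at 500 genes, 500 UMIs, and 10% mitochondrial UMIs and selected on the 6 rule genes and Ptprc. Counts were summed over barcodes in each library apart, with exact Poisson and Clopper-Pearson 95% intervals for counting error only. A count of 0 was given a limit of 3 counts. Comparison classes, under 2% of rule genes, were taken in the order collagen, globin (at least 10%), S100a8/S100a9 (at least 2%), and Cd79a/Cd79b (at least 2 UMIs). The values at 1000 UMIs are hypergeometric expectations. Named genes were the listed genes, the 10 with the largest fold of CPM + 10 in the library where it was smaller (at least 10 UMIs in each library), and the 10 most abundant by the lower library. Members, lists, and the split at 1% of other-lineage UMIs were chosen with earlier results of these data known. No test was made, since 1 condition was measured and RNA chose the barcodes. The computation of levels and intervals was also run on simulated data, and the outcome is not reported here. Python 3.11.15, numpy 2.4.6, and scipy 1.17.1 were used. Alternatives changed the 2% share to 1% or 5%, dropped the Ptprc condition, the mitochondrial filter, or the gene minimum, or weighted barcodes equally. The result of 1 marker list is not reported here.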

Additional observations from a re-analysis of the deposited data

Results flagged for a closer look

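Barcodes outside the filters also met the rule on muscle genes. In library 1, 55 barcodes with at least 2% of UMIs in the rule genes failed the filters, 53 of them because they had fewer than 500 genes, and in library 2, 29 did, all for that reason. Their median depth was 819 and 706 UMIs, their median rule-gene share 15.99% and 16.2%, and their median mitochondrial share 0.218% and 0.185%. They held 14.5% and 6.30% of all rule-gene UMIs.

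Reporter sequences were counted in muscle-like barcodes of libraries labeled WT. tdTomato had 10 UMIs in 7 barcodes of library 1, or 45.2 CPM (21.7 to 83.1), against 16.03 CPM in the other barcodes past the filters. It had 19 UMIs in 11 barcodes of library 2, or 62.5 CPM (37.6 to 97.6), against 151.4 CPM. All 34 EGFP UMIs of library 2 were in 1 muscle-like barcode, and library 1 had none.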

How the results depend on the processing

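Without the minimum of 500 genes, library 1 had 126 muscle-like barcodes in place of 77 and library 2 had a median depth of 1886 UMIs in place of 2784, since shallower barcodes then entered. The share of muscle genes outside the rule moved beyond its counting interval in most settings while keeping its size. From 17.4% in library 1, it went to 15.4% at a 1% rule, 18.5% at 5%, 16.1% without the Ptprc condition, 17.6% without the gene minimum, 17.1% with barcodes weighted equally, and 18.9% without barcodes with 1% of other lineages. From 16.3% in library 2, it went to 15.0%, 18.4%, and 15.2% in the first 3 of these settings, to 16.8% with equal weights, and to 18.3% without barcodes with 1% of other lineages. That last setting was chosen after seeing the data. The fast myosin share stayed within its interval in every setting run. Of the 89 muscle genes outside the rule, 68 or 69 were at 2-fold or more in each setting except equal weights, which lacked this count. In the main setting, 1232 of all 11085 genes with a UMI in muscle-like barcodes reached 2-fold in library 1 and 922 in library 2. Each library was given apart, so the value without 1 library is that of the other. No paired analysis was possible because there is 1 group. In each library 11 barcodes had no myosin UMI, at 1086 to 4269 UMIs in library 1 and 1011 to 15598 in library 2. The Malat1 and Tnnt1 levels and the myosin shares without the barcodes that held most of them were also chosen after seeing the data.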

Other observations

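H19 and Cryab, chosen after their values were seen, were abundant in nearly all muscle-like barcodes. H19, an imprinted long noncoding RNA of fetal and early postnatal muscle, was at 2616 CPM in library 1 (579 UMIs, in 74 of 77 barcodes) and 2496 CPM in library 2 (759 UMIs, in 64 of 66), against 6.36 and 56.7 CPM in the other barcodes without Ptprc. Cryab was at 4536 and 4084 CPM. Sln, a regulator of the calcium pump, had 56 and 13 UMIs in 10 and 2 barcodes, at 2638 (21 UMIs) and 413.5 CPM (3 UMIs) in Myh7-led barcodes and with no UMI in Myh4-led ones.

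Of barcodes past the filters, 3 in library 1 and 2 in library 2 had at least 2% of rule-gene UMIs together with Ptprc and were left out. They had 7441 to 12272 UMIs in library 1 and 11577 and 28464 UMIs in library 2. The immediate early and heat shock genes Fos, Jun, Egr1, Hspa1a, Hspa1b, and Atf3, which dissociation can raise, summed to 234.9 CPM in library 1 and 864.7 CPM in library 2, with a median of 0 per barcode in each. In library 2, where they had 263 UMIs, 1 barcode had 1.28% of its UMIs in them. Fos, Hspa1a, and Hspa1b gave 58, 47, and 51 of these 263 UMIs and were seen in 6, 4, and 3 of 66 barcodes. The sum of library 2 thus rests largely on few barcodes.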
